A study of Homo sapiens with 4 samples.

Results

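Interferon-stimulated genes are the genes that cells switch on when type I, II or III interferon reaches its receptor. Here a list of 36 such genes was read in RNA of A549 cells, a human lung adenocarcinoma line, after knockdown of the splicing regulator RBM10. The genes were taken by name and matched through their Ensembl gene IDs, with low values kept. Of the 36, 32 had a row among the 17041 genes of the expression table. IFI44L, MX2, OAS2 and XAF1 were not analysed here. In the splicing table, 4 of 3768 junction events belonged to 3 of the genes, OAS1, IFI6 and STAT2.

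The knockdown group was 2 libraries of A549 cells that had been transduced with a lentivirus encoding 1 shRNA against RBM10 and kept under 1 µg/mL puromycin for 10 to 14 days. The other group was 2 libraries of A549 cells labelled RBM10 wild type. The sources do not state that these cells were given a control virus or the drug, so that loss of RBM10, transduction and puromycin selection cannot be told apart in any comparison below. No interferon treatment is named for either group. Nothing in the labels says that the 2 libraries of a group came from separate cultures, so p-values measure no more than how far these libraries differ, and that spread may be technical. All 4 libraries carry the same batch label. The knockdown cells were a selected population carrying a single hairpin sequence, and in RNA of whole cultures fewer cells that express a gene and less of its RNA per cell cannot be told apart.

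Interferons bind receptors on the cell surface, and the kinases JAK1 and TYK2 then phosphorylate STAT proteins. STAT2 and IRF9 are parts of a complex that binds a DNA element, the interferon-stimulated response element (ISRE), in front of many of the genes described here. The products block viruses at several steps. IFITM proteins act at membrane fusion, IFIT proteins on foreign RNA, and MX proteins on viral components inside the cell. OAS enzymes and the kinase PKR sense double-stranded RNA, and ISG15 is a ubiquitin-like tag on other proteins. Lentiviral vectors bring foreign RNA and DNA into a cell and an shRNA folds into double-stranded RNA, and for that reason these genes are often inspected in knockdown experiments.

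The DNA in front of the genes' start sites is shown first, because the genes differ in whether it holds an ISRE core. The core was searched as GAAANNGAAA or TTTCNNTTTC, the same motif on either strand, where matches may overlap each other, in RefSeq promoter windows of 300 bases (GRCh38.p14), 250 before and 50 after the start. Of all 35116 windows, 1255 (3.57%) held it, or 1195 of 27305 genes (4.38%) in at least 1 window. Of the 28 listed genes with a window, 20 (71.4%) held it. The table had no window for IFITM2, IRF7, IFIT2, USP18, MX2, OASL, IRF3 and OAS2. The palindrome TTCNNNGAA, the gamma-activated site bound by STAT dimers, was in windows of 9 of the 28 genes, against 2560 of 27305 genes (9.38%), and its letters can overlap an ISRE core. A match is a description of the letters and not a binding site.

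The 160 bases before the start are printed for IFITM3, IFITM1, ISG15 and IFI6, which rose in knockdown cells and hold the core, with each core that lies wholly inside in capitals. They lie at chr11:320861-321020 (minus strand), chr11:313880-314039 (plus strand), chr1:1013337-1013496 (plus strand) and chr1:27672193-27672352 (minus strand).
IFITM3: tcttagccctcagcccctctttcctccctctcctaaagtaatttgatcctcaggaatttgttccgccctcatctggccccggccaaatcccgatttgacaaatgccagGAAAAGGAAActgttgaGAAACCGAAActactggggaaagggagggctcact
IFITM1: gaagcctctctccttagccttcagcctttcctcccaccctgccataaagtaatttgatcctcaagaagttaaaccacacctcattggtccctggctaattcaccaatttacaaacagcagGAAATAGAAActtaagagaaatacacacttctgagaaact
ISG15: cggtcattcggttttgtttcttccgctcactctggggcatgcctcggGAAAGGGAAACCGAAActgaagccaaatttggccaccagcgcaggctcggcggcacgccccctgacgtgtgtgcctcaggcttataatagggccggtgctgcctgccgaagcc
IFI6: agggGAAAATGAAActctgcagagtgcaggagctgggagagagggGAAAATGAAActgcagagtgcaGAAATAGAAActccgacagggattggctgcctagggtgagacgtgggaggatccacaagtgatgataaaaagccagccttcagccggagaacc

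For BST2 and IFIT1, which also hold the core but stayed below 1 RPKM in every library, the windows lie at chr19:17405631-17405790 (minus strand) and chr10:89392463-89392622 (plus strand).
BST2: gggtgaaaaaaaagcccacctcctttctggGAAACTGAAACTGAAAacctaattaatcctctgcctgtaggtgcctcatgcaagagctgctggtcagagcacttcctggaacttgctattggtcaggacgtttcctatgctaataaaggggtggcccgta
IFIT1: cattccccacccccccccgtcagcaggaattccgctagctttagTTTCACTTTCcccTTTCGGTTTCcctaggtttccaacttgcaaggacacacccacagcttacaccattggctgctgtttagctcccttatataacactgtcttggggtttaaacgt

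For IRF9 and STAT2, which rose, and OAS1, which fell, no core was found in the window. They lie at chr14:24161105-24161264 (plus strand), chr12:56360108-56360267 (minus strand) and chr12:112906802-112906961 (plus strand). The capitals in OAS1 mark GAAA repeated with 1 base between, a spacing searched after its sequence was seen. It was in 1097 of 35116 windows (3.12%), or 1056 of 27305 genes (3.87%). Of the 28 listed genes with a window, 8 held it, so it is not particular to OAS1.
IRF9: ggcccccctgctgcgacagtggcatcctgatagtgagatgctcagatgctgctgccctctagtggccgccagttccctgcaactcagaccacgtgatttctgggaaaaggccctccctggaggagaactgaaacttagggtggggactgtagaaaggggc
STAT2: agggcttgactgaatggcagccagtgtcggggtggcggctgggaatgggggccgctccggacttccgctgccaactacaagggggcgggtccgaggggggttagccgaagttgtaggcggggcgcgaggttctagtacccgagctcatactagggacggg
OAS1: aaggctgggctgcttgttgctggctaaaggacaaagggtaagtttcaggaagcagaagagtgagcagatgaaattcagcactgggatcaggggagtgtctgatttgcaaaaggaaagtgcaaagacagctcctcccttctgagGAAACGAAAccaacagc

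The search found 2 cores in IFITM3, ISG15, BST2 and IFIT1 and 3 in IFI6. IFITM1 held 2, of which 1 spans the start and is not in capitals. In ISG15 and BST2 the 2 cores overlap and read as 1 run of capitals.

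Expression was given as RPKM, a unit inferred from the values, which divides reads by the length of the gene and the depth of the library. Since the values seem to count junction reads (below), levels are compared between libraries, and an order between genes with few and many exons is a description of the listed values. In the deposited table no gene is at 0. Where 2 or more libraries shared a gene's lowest value, it was taken as the value of a gene without reads. Relative depth was inferred from the most common ratio between libraries in the values of low genes. Against wild-type replicate 2, the deepest library by this measure, it was 84.5% and 95.6% in knockdown replicates 1 and 2, and 99.0% in wild-type replicate 1. RBM10 itself was at 11.6 and 10.9 RPKM in knockdown libraries, against 35.5 and 40.8 RPKM in wild-type libraries (limma, Benjamini-Hochberg adjusted p = 1.01e-05). The keratin genes KRT8 and KRT18, markers of epithelial cells, were at 325 RPKM or more in every library, and KRT18 was at 1731 and 1855 RPKM in knockdown libraries, against 890 and 973 RPKM in wild-type libraries. Of the 8 epithelial and A549 markers, all at 1 RPKM or more, 5 rose and 1 fell, against 15.3% and 7.03% of all tested genes. Of 4 leukocyte markers with a row, LYZ, CD14 and ITGAM were at 0.391 RPKM or less in every library, LYZ with overlap, CD14 with higher and ITGAM with lower values in both knockdown libraries. CD68, a lysosomal protein, was at 3.49 and 3.57 RPKM in knockdown libraries, against 1.56 and 1.72 RPKM in wild-type libraries, and rose (limma, adjusted p = 0.00101). The 4 leukocyte markers summed to 4.0 and 4.05 RPKM in knockdown libraries, against 1.91 and 2.28 RPKM in wild-type libraries, most of it CD68. The 3 fibroblast markers with a row were at 0.177 RPKM or less. Each was higher in both knockdown libraries than in either wild-type library, as were 38.1% of all genes under the level for testing (below). PDGFRA held the shared value of genes without reads in both wild-type libraries. The 3 markers summed to 0.209 and 0.272 RPKM in knockdown libraries, against 0.0270 and 0.0521 RPKM in wild-type libraries. Without a filter on low values LUM passed as higher (limma, adjusted p = 0.0442), as did 1224 of all 17041 genes. The endothelial marker PECAM1 was at 0.0130 RPKM or less, with overlap. The part of these markers in the results below was not tested.

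Genes were tested where the mean of at least 1 group was 1 RPKM or more, on log2(RPKM + 1), a scale that understates the change of genes at low levels. A gene was called at an adjusted p under 0.05. Of the 32 genes with a row, 19 were tested and 13 stayed under that level. ISG15 and IFITM1 passed it through the knockdown group alone. In knockdown cells, 7 of the 19 tested genes rose, the membrane proteins IFITM1, IFITM2 and IFITM3, the transcription factors STAT2 and IRF9, and ISG15 and IFI6. OAS1 was the 1 gene that fell, and 11 did not pass. Of all 10182 tested genes, 15.3% rose and 7.03% fell. Under quantile normalization higher genes made up 54.5% of all calls, against 68.5% with the deposited scaling, while the same 7 listed genes rose. The median log2 change was 0.04 over the 19 genes and 0.02 over all tested genes. The groups did not overlap in 9 tested genes that were higher and 4 that were lower in knockdown libraries, against 34.3% and 27.3% of all tested genes. IFIT1, IFIT2, IFIT3, MX1 and IFI44 stayed at 0.146 RPKM or less in every library. The groups overlapped in IFIT2, IFIT3 and IFI44. IFIT1 and MX1 were higher in both knockdown libraries than in either wild-type library, as were 38.1% of all genes under the level for testing.

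**Figure D1:**
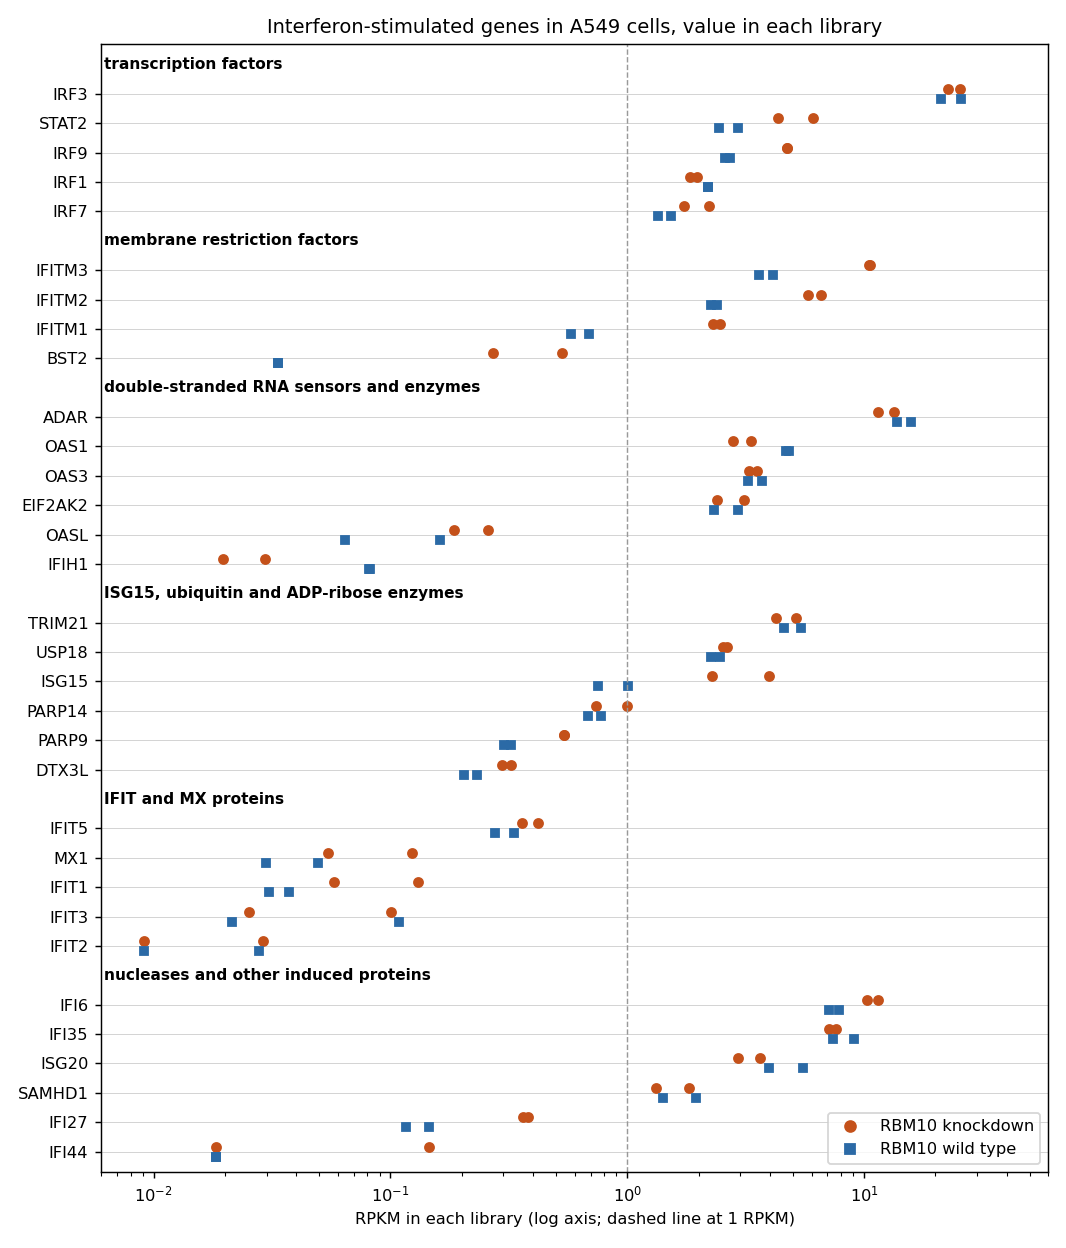
RPKM of the 32 interferon-stimulated genes with a row, in each of the 2 knockdown libraries (orange circles) and 2 wild-type libraries (blue squares), on a log axis, grouped by role. The 3 IFITM genes stand apart from their wild-type libraries, while the IFIT and MX genes lie below 1 RPKM (dashed line) in both groups.

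Among the transcription factors, STAT2 and IRF9 rose. STAT2 (chromosome 12, 56341597 to 56360155, hg38) was at 4.34 and 6.06 RPKM in knockdown libraries, against 2.93 and 2.45 RPKM in wild-type libraries, with means of 5.2 ± 1.22 RPKM in knockdown and 2.69 ± 0.339 RPKM in wild-type libraries (SD, n = 2 each). The groups did not overlap, and the knockdown libraries differed from each other by more than the wild-type libraries did. Its log2 change was 0.74 (SE 0.15; limma, adjusted p = 0.0067). IRF9 (chromosome 14, 24161053 to 24166565), the DNA-binding subunit of the complex, was at 4.71 and 4.74 RPKM in knockdown libraries, against 2.58 and 2.70 RPKM in wild-type libraries, with means of 4.72 ± 0.0209 RPKM in knockdown and 2.64 ± 0.0876 RPKM in wild-type libraries. All 4 values were close to their group's mean, and the log2 change was 0.65 (SE 0.11; limma, adjusted p = 0.00266).

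The other 3 factors did not pass the test. IRF7, which amplifies interferon production, was at 2.21 and 1.74 RPKM in knockdown libraries, against 1.35 and 1.53 RPKM in wild-type libraries, without overlap (limma, adjusted p = 0.134). IRF1, a factor induced by interferon-gamma, was at 1.83 and 1.98 RPKM in knockdown libraries, against 2.19 and 2.20 RPKM in wild-type libraries (limma, adjusted p = 0.408). The groups did not overlap in IRF1 either, which alone was common among tested genes. IRF3, which is present before infection and starts interferon transcription, had the highest value of the whole list, at 25.4 and 22.7 RPKM in knockdown libraries and 21.1 and 25.6 RPKM in wild-type libraries, with overlap.

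The IFITM genes, which lie side by side on chromosome 11 and encode small membrane proteins that hinder fusion of viruses with the cell, rose together. IFITM3 (319669 to 327537) was at 10.54 and 10.50 RPKM in knockdown libraries, against 3.61 and 4.1 RPKM in wild-type libraries, with means of 10.5 ± 0.0268 RPKM in knockdown and 3.86 ± 0.347 RPKM in wild-type libraries (SD, n = 2 each). Its log2 change of 1.25 (SE 0.11; limma, adjusted p = 6.46e-05) was the largest among the 19 tested genes on this scale. With a pseudocount of 0.1 the log2 changes were 1.43 for IFITM3, 1.76 for IFITM1 and 1.68 for ISG15, and without knockdown replicate 2 that of ISG15 (1.40) was also the larger. IFITM2 (307631 to 315272) was at 6.55 and 5.80 RPKM in knockdown libraries, against 2.39 and 2.26 RPKM in wild-type libraries, with means of 6.18 ± 0.525 RPKM in knockdown and 2.33 ± 0.0946 RPKM in wild-type libraries. Its log2 change was 1.11 (SE 0.12; limma, adjusted p = 0.000151). IFITM1 (313506 to 315272) was at 2.30 and 2.47 RPKM in knockdown libraries, against 0.690 and 0.578 RPKM in wild-type libraries, with means of 2.39 ± 0.121 RPKM in knockdown and 0.634 ± 0.0791 RPKM in wild-type libraries. Its log2 change was 1.05 (SE 0.11; limma, adjusted p = 0.000167). As ratios of group means, the 3 genes stood at 2.73, 2.65 and 3.77 times wild type, and in each the lowest knockdown library was above the highest wild-type library. IFITM1, IFITM2 and IFITM3 are near-identical in parts of their sequence, and the annotated span of IFITM2 covers IFITM1, so how the authors' counting divided reads among them is uncertain. BST2, or tetherin, which holds budding virus at the cell surface, was at 0.270 and 0.531 RPKM in knockdown libraries, while both wild-type libraries held the shared value of genes without reads. It lay under the level for testing, and no fold is given.

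Of the 4 tested sensors and enzymes of double-stranded RNA, 0 rose and 1 fell, against 15.3% and 7.03% of all tested genes. OAS1 (chromosome 12, 112906777 to 112933222), which makes the 2-5A messenger that activates RNase L, was at 3.34 and 2.79 RPKM in knockdown libraries, against 4.68 and 4.79 RPKM in wild-type libraries, with means of 3.06 ± 0.386 RPKM in knockdown and 4.74 ± 0.0815 RPKM in wild-type libraries (SD, n = 2 each). It was the one listed gene that fell, with a log2 change of -0.50 (SE 0.12; limma, adjusted p = 0.0144), and without knockdown replicate 2 it did not pass (adjusted p = 0.136). OAS3, its larger relative, was at 3.27 and 3.54 RPKM in knockdown libraries and 3.71 and 3.22 RPKM in wild-type libraries, with overlap. EIF2AK2, which encodes the kinase PKR, was at 2.40 and 3.1 RPKM in knockdown libraries and 2.94 and 2.33 RPKM in wild-type libraries, with overlap. ADAR, which edits double-stranded RNA, was at 11.4 and 13.4 RPKM in knockdown libraries, against 15.8 and 13.8 RPKM in wild-type libraries, and did not pass (limma, adjusted p = 0.181). Below 1 RPKM, OASL was at 0.257 and 0.185 RPKM in knockdown libraries, against 0.163 and 0.0644 RPKM in wild-type libraries. IFIH1, which encodes the RNA sensor MDA5, was at 0.0297 and 0.0197 RPKM in knockdown libraries, against 0.0822 and 0.0814 RPKM in wild-type libraries, the one gene under the testing level whose knockdown libraries were both lower.

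**Figure D2:**
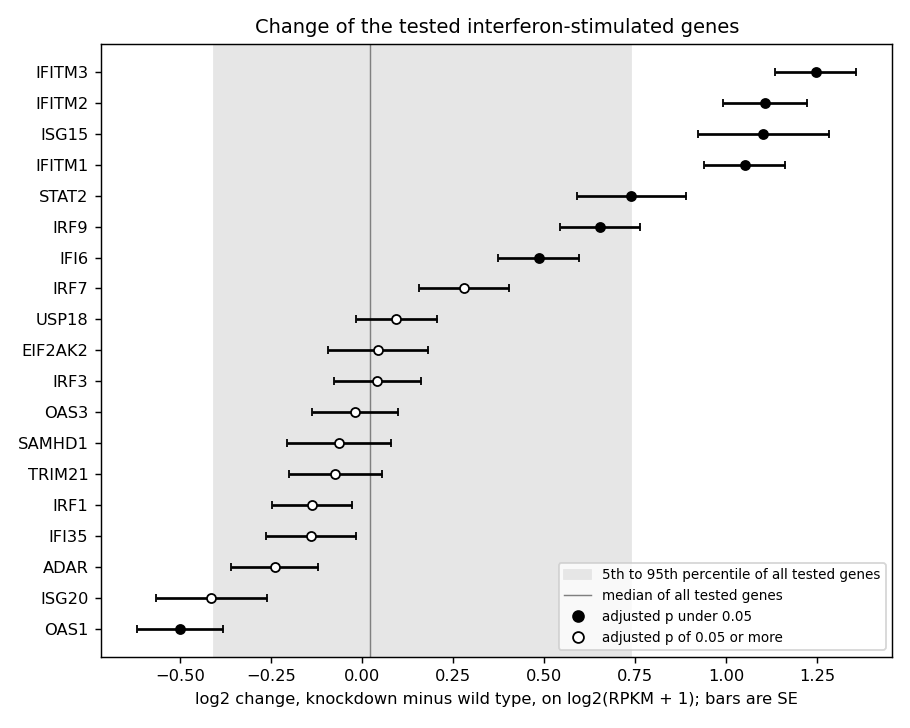
Log2 change of the 19 tested interferon-stimulated genes, knockdown minus wild type on log2(RPKM + 1), with SE bars; filled points passed limma's test. The grey band runs from -0.41 to 0.74, the 5th and 95th percentiles of all 10182 tested genes. IFITM3, IFITM2, ISG15 and IFITM1 lie well beyond its upper edge, STAT2 lies at that edge, and ISG20 and OAS1 lie at or beyond its lower edge.

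In the ISG15 system, the modifier rose and its protease did not pass. ISG15 (chromosome 1, 1001138 to 1014540) was at 3.96 and 2.27 RPKM in knockdown libraries, against 1.00 and 0.753 RPKM in wild-type libraries, with means of 3.11 ± 1.19 RPKM in knockdown and 0.879 ± 0.177 RPKM in wild-type libraries (SD, n = 2 each). Knockdown replicate 1 was well above replicate 2, and both were above wild type. The log2 change was 1.10 (SE 0.18; limma, adjusted p = 0.00226), and it was 1.68 with a pseudocount of 0.1. USP18, which removes ISG15 from proteins and dampens receptor signalling, was at 2.54 and 2.63 RPKM in knockdown libraries, against 2.46 and 2.26 RPKM in wild-type libraries (limma, adjusted p = 0.584). UBE2L6, the enzyme that passes ISG15 on to its ligase and not a listed gene, was at 4.67 and 4.61 RPKM in knockdown libraries, against 3.32 and 3.62 RPKM in wild-type libraries, and did not pass (limma, adjusted p = 0.0578). TRIM21, an antibody receptor and ubiquitin ligase in the cytosol, was at 4.25 and 5.15 RPKM in knockdown libraries and 4.59 and 5.40 RPKM in wild-type libraries, with overlap.

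PARP9 and DTX3L, which form a complex of an ADP-ribosyltransferase family member and a ubiquitin ligase, are head-to-head neighbours on chromosome 3. PARP9 was at 0.542 and 0.539 RPKM in knockdown libraries, against 0.322 and 0.302 RPKM in wild-type libraries. DTX3L was at 0.297 and 0.323 RPKM in knockdown libraries, against 0.204 and 0.231 RPKM in wild-type libraries. The groups overlapped in neither gene. Both genes were under the level for testing, where 38.1% of all genes were likewise higher in both knockdown libraries. PARP14, a further ADP-ribosyltransferase, was at 0.741 and 1.00 RPKM in knockdown libraries and 0.774 and 0.682 RPKM in wild-type libraries, with overlap.

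The IFIT and MX genes were low in both groups. IFIT1, whose product binds foreign 5' ends of RNA, was at 0.131 and 0.0577 RPKM in knockdown libraries, against 0.0371 and 0.0307 RPKM in wild-type libraries. IFIT2 was at the shared value of genes without reads in 1 knockdown and 1 wild-type library, at 0.0289 RPKM in the other knockdown library and at 0.0279 RPKM in the other wild-type library. IFIT3 was at 0.0254 and 0.101 RPKM in knockdown libraries and 0.108 and 0.0214 RPKM in wild-type libraries, with overlap. IFIT5 stood highest in this family, at 0.358 and 0.420 RPKM in knockdown libraries, against 0.277 and 0.331 RPKM in wild-type libraries. MX1, a dynamin-like GTPase that acts on viral components, was at 0.0545 and 0.124 RPKM in knockdown libraries, against 0.0299 and 0.0493 RPKM in wild-type libraries. None of the 5 was tested. Of 980 single-exon protein-coding genes, 17 (1.73%) had a row, against 14211 of 18971 with 2 or more exons (74.9%), so the values seem to count junction reads. IFIT3 and IFIT5 have at most 2 exons in any GENCODE v29 transcript, and IFIT1, ISG15 and the IFITM genes at most 3, so their values rest on few junctions.

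Of the remaining genes, IFI6, a protein of the endoplasmic reticulum and mitochondria that counters cell death, rose. It was at 11.4 and 10.3 RPKM in knockdown libraries, against 7.87 and 7.10 RPKM in wild-type libraries, with means of 10.9 ± 0.795 RPKM in knockdown and 7.48 ± 0.543 RPKM in wild-type libraries (SD, n = 2 each). The groups did not overlap, and the log2 change was 0.49 (SE 0.11; limma, adjusted p = 0.0132), which did not pass without knockdown replicate 1 (adjusted p = 0.110). ISG20, an RNA exonuclease, was at 3.63 and 2.93 RPKM in knockdown libraries, against 3.95 and 5.54 RPKM in wild-type libraries, without overlap, and did not pass (log2 change -0.41, SE 0.15; limma, adjusted p = 0.0816), although it passed as lower without knockdown replicate 1 or wild-type replicate 1 (adjusted p = 0.0306 and 0.00961). SAMHD1, which breaks down the nucleotides that retroviruses need, was at 1.32 and 1.82 RPKM in knockdown libraries and 1.95 and 1.42 RPKM in wild-type libraries, with overlap. IFI35 was at 7.60 and 7.12 RPKM in knockdown libraries and 7.38 and 9.10 RPKM in wild-type libraries, also with overlap.

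IFI27, a homologue of IFI6, was at 0.380 and 0.364 RPKM in knockdown libraries, against 0.145 and 0.116 RPKM in wild-type libraries. It was under the level for testing, and without that filter it was the one gene of the 13 to pass (limma, adjusted p = 0.0222). Over the whole table, 1224 of 17041 genes passed as higher and 322 as lower without the filter. IFI44 was at 0.146 RPKM in knockdown replicate 2 and at the shared value of genes without reads in the other 3 libraries. Of the 13 genes under the level for testing, 8 had higher values in both knockdown libraries than in either wild-type library and 1 had lower values, against 38.1% and 9.94% of all 6859 genes under that level. Change varied with level over the whole table: tested genes with a mean under 2 RPKM had a median log2 change of 0.14 and 21.6% of them rose, while among those at 10 to 30 RPKM the median was -0.03 and 13.8% rose. Of the listed genes, 2 of 4 rose under 2 RPKM (ISG15 and IFITM1), 3 of 10 at 2 to 5 RPKM, 2 of 3 at 5 to 10 RPKM and 0 of 2 at 10 to 30 RPKM. ISG15 and IFITM1 were tested through the knockdown group alone, so the count under 2 RPKM depends on their rise. Values summed over the 32 genes were 116 and 115 RPKM in knockdown libraries, against 95.5 and 99.1 RPKM in wild-type libraries.

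Calls occurred with and without a promoter core. Of the 15 tested genes with a promoter window, the core was in 8, of which 4 rose (ISG15, IFI6, IFITM1 and IFITM3) and 4 did not pass (ISG20, OAS3, EIF2AK2 and TRIM21). Of the 7 without it, 2 rose (STAT2 and IRF9), 1 fell (OAS1) and 4 did not pass (IFI35, IRF1, SAMHD1 and ADAR). All 11 genes with a window that stayed under the level for testing held the core, among them BST2 and IFIT1 printed above. Calls were not counted by core over all tested genes, of which 15.3% rose and 7.03% fell.

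The rest of the interferon pathway was read from lists of ligands, receptors, signalling proteins, sensors and further targets. Beside the counts of each list stand the 15.3% of all tested genes that rose and the 7.03% that fell. None of the 13 interferon ligand genes sought, which include IFNB1, IFNL1 and IFNG, was analysed here. Of 6 receptor genes, IFNLR1, the type III receptor chain, was under the level for testing, at 0.275 and 0.413 RPKM in knockdown libraries against 0.0863 and 0.171 RPKM in wild-type libraries, and 0 of the other 5 passed. IFNAR1 was at 1.46 and 1.72 RPKM in knockdown libraries and 1.57 and 1.60 RPKM in wild-type libraries. IFNAR2 was at 2.38 and 2.05 RPKM in knockdown libraries and 2.47 and 2.26 RPKM in wild-type libraries. IFNGR2, with the highest values of them, was at 12.3 and 12.3 RPKM in knockdown libraries and 12.2 and 12.4 RPKM in wild-type libraries, while IFNGR1 and IL10RB lay between 2.78 and 5.57 RPKM in all 4.

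Of 10 tested receptor kinases, STATs and feedback genes, 0 rose and 2 fell, with a median log2 change of 0.02. JAK1, the kinase bound to the interferon receptors, was at 32.4 and 39.2 RPKM in knockdown libraries, against 52.7 and 45.0 RPKM in wild-type libraries (log2 change -0.44, SE 0.12; limma, adjusted p = 0.0295), a call that was lost without knockdown replicate 1 or wild-type replicate 1 (adjusted p = 0.218 and 0.10), under quantile normalization (adjusted p = 0.0510) or without the filter (adjusted p = 0.111). SOCS3, a feedback inhibitor of JAK signalling, was at 1.02 and 0.779 RPKM in knockdown libraries, against 1.51 and 2.19 RPKM in wild-type libraries (log2 change -0.58, SE 0.14; limma, adjusted p = 0.0155), and its call was lost without wild-type replicate 2 (adjusted p = 0.0933) or without the filter (adjusted p = 0.0926). SOCS3 was tested through the wild-type group alone (knockdown mean 0.898 RPKM), and its log2 change was -0.96 with a pseudocount of 0.1. Of 7 tested nucleic acid sensors and adaptors, 0 rose and 1 fell, with a median of -0.06. This was IKBKE, a kinase that activates IRF3, at 3.29 and 3.27 RPKM in knockdown libraries, against 4.88 and 5.07 RPKM in wild-type libraries (log2 change -0.48, SE 0.11; limma, adjusted p = 0.0123), which did not pass with either knockdown library left out (adjusted p = 0.0559 and 0.0650). RIGI, the sensor RIG-I, was under the level for testing, at 0.524 and 0.603 RPKM in knockdown libraries against 0.494 and 0.419 RPKM in wild-type libraries.

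Of 18 tested further type I interferon targets, 2 rose and 0 fell, against 15.3% and 7.03% of all tested genes. Their median log2 change was 0.08. The other 18 were under the level for testing, and without that filter 3 of them passed as higher, GBP3, TRIM22 and HELZ2 (limma, adjusted p = 0.0220, 0.0289 and 0.0452). Without the filter, 1224 of all 17041 genes passed as higher and 322 as lower. LGALS3BP, a secreted glycoprotein, was at 15.6 and 14.0 RPKM in knockdown libraries, against 6.51 and 7.35 RPKM in wild-type libraries (log2 change 0.99, SE 0.11; limma, adjusted p = 0.000273). DDX60L, a putative RNA helicase, was at 1.48 and 2.08 RPKM in knockdown libraries, against 1.12 and 0.777 RPKM in wild-type libraries (log2 change 0.51, SE 0.14; limma, adjusted p = 0.0294), and did not pass without knockdown replicate 2 or wild-type replicate 2 (adjusted p = 0.0923 and 0.136), under quantile normalization (adjusted p = 0.0741) or without the filter (adjusted p = 0.128). DDX60L too was tested through the knockdown group alone (wild-type mean 0.949 RPKM), and its log2 change was 0.84 with a pseudocount of 0.1. Of 8 tested interferon-gamma targets, 1 rose and 1 fell, with a median of 0.11, and without the filter GBP2 passed as higher too (limma, adjusted p = 0.0343). CD274, the immune checkpoint ligand PD-L1, was at 1.04 and 1.21 RPKM in knockdown libraries, against 0.195 and 0.0827 RPKM in wild-type libraries (log2 change 0.90, SE 0.11; limma, adjusted p = 0.000485). It was tested through the knockdown group alone, since its wild-type mean was 0.139 RPKM, and with a pseudocount of 0.1 its log2 change was 2.39. PSMB9, an immunoproteasome subunit, was at 2.59 and 3.6 RPKM in knockdown libraries, against 10.3 and 11.4 RPKM in wild-type libraries (log2 change -1.55, SE 0.14; limma, adjusted p = 6.46e-05).

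**Figure D3:**
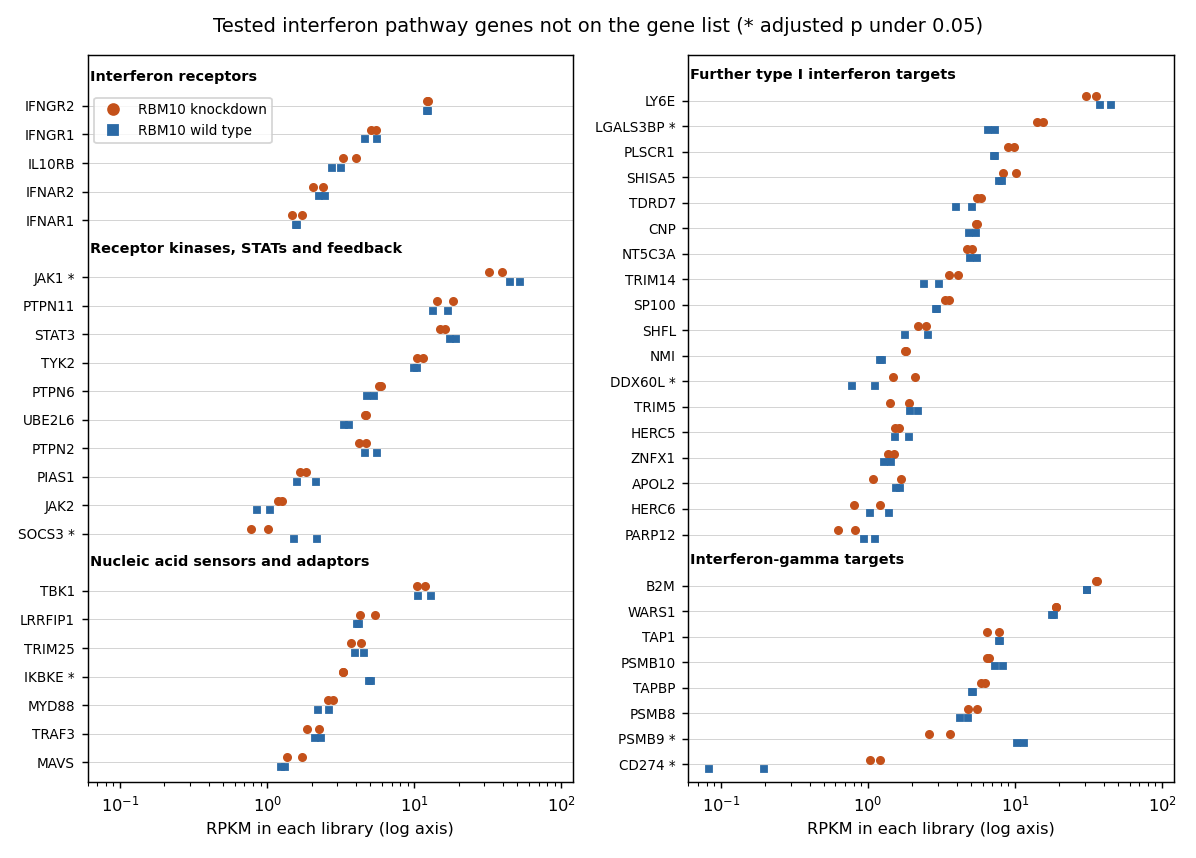
RPKM of the tested interferon receptors, signalling genes, sensors and further targets in each library (orange circles knockdown, blue squares wild type), on log axes; a star marks genes past limma's test. Most pairs of groups lie side by side, and 7 genes are starred, among them LGALS3BP and CD274 to the right of wild type and PSMB9 to its left.

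Splicing was given as PSI, the share of reads that use an examined junction among a set of competing junctions. The exon ends that compete in STAT2, IFI6 and OAS1 are printed from GENCODE v29 transcripts, with the bases that differ in capitals. In STAT2, exon 4 starts at 56355803 or, 12 bases further into the exon, at 56355791 (minus strand), and the coding sequence of STAT2-201 has those bases and that of STAT2-202 lacks them.
STAT2-201: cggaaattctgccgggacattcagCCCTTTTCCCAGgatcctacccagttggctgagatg
STAT2-202: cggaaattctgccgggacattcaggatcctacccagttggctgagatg

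In IFI6 (chromosome 1, minus strand), exon 2 ends at 27669245 in IFI6-202 or 12 bases later, at 27669233, in IFI6-203.
IFI6-202: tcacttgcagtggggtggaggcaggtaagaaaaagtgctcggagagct
IFI6-203: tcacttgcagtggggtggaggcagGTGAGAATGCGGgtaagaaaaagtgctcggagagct

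In OAS1 (chromosome 12, plus strand), the exon that ends at 112917700 is joined to a coding exon that starts at 112918597 in OAS1-210 or at 112919487 in OAS1-202, an event that the authors list as an alternative C terminus.
OAS1-210: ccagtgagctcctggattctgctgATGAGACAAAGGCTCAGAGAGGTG
OAS1-202: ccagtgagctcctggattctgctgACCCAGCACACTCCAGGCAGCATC

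None of these events separated the groups. The upstream STAT2 site, with the extra bases, had a PSI of 73.7% and 81.5% in knockdown libraries, against 53.7% and 90.5% in wild-type libraries. Both knockdown values lay between the wild-type values, with a difference of 5.52 points (SE 13.0; limma on PSI, adjusted p = 0.823). The event listed for the downstream site was its mirror image, at 26.3% and 18.5% in knockdown libraries and 46.3% and 9.52% in wild-type libraries. For the shorter IFI6 exon the PSI was 90.3% and 61.0% in knockdown libraries, against 72.7% and 71.7% in wild-type libraries, so that here both wild-type values lay between the knockdown values (difference 3.45 points, SE 11.3; adjusted p = 0.877). For the OAS1 junction to 112918597 the PSI was 43.6% and 76.7% in knockdown libraries, against 45.1% and 83.0% in wild-type libraries (difference -3.89 points, SE 16.5; adjusted p = 0.905). In OAS1 replicate 1 was low and replicate 2 high in both groups, and the same order held at the upstream STAT2 site. In IFI6 replicate 1 was above replicate 2 in both groups. Over all 3744 events, the replicate differences of the 2 groups had a correlation of r = -0.04. Of 3744 events tested in the whole table, 0.0% passed (adjusted p below 0.05 with PSI differing by at least 0.1 on its scale of 0 to 1), while 717 had an unadjusted p under 0.05, and 4 passed in limma without a trend on the mean. The reads behind each PSI are not given, so that their depth is unknown. The listed events vary by 0.15 or more over the 4 libraries, whatever the group. The spread that the authors give for each event is another measure, since it was 0.168 and 0.278 for the mirror-image STAT2 events.

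**Figure D4:**
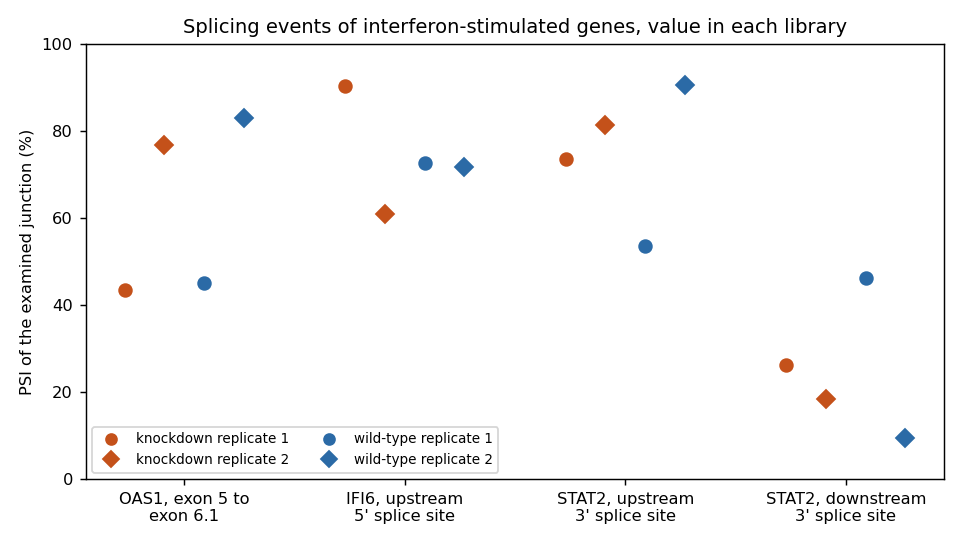
PSI in percent of the 4 splicing events of interferon-stimulated genes, in each knockdown library (orange) and wild-type library (blue); circles are replicate 1 and diamonds replicate 2. In each event the values of the 2 groups overlap.

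**Figure D5:**
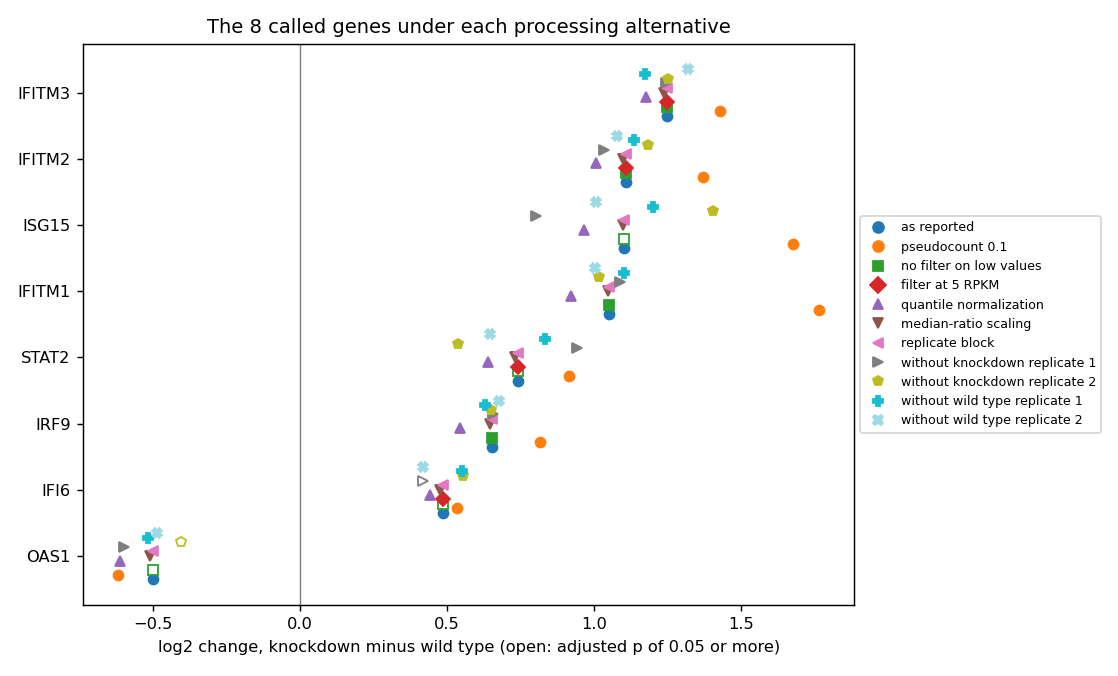
Log2 change (knockdown minus wild type) of the 8 called genes as reported and under each processing alternative; open symbols did not pass. All values lie on the same side of 0 as reported, the 3 IFITM genes and IRF9 have filled symbols wherever they were tested (IFITM1 and IRF9 not with the filter at 5 RPKM), and open symbols occur for ISG15, STAT2, IFI6 and OAS1.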

How the data were processed

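RNA of 2 knockdown and 2 wild-type libraries was read as poly-A-selected, stranded paired reads of 100 bp, per the labels' protocols. Per the submitters' processing notes, STAR 2.6.1 and build hg38 were used. Not given in the sources used here were the splicing caller, the counting tool, its gene models and whether strand was used. The deposited expression values have the form of RPKM, a unit inferred from the values and not written in the file. Of the 32 genes, 16 share bases with a gene annotated on the other strand, ISG15, IFI6, IFITM2, IFITM3 and OAS1 among them, and could hold its reads. The authors' deposited PSI is a fraction between 0 and 1, and the text gives it in percent. Names for 16921 of 17041 gene IDs were looked up in a supplied ID list, and positions in GENCODE v29 (hg38).

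Expression was compared on log2(RPKM + 1) in R 4.3.3 with limma 3.58.1 (trended empirical Bayes moderation, two-sided, no covariate; p-values adjusted after Benjamini and Hochberg over all 10182 tested genes), and PSI likewise over 3744 events. Both were first run on simulated data as a check of the code. The noise and shifts of the simulated PSI were set by choice, so that run does not measure the power of the PSI test. The genes and lists were chosen with earlier results of these data known. Every listed gene is named. Of the other lists, called genes are named, up to 4 per list by size of change, with the receptors by level and UBE2L6, RIGI, GBP2, GBP3, TRIM22, HELZ2 and the cell type markers added after their values were seen. A gene of the signalling list is not reported here or counted in that list. Replicate numbers were not used as pairs, because the sources do not say that they pair libraries. Same-numbered libraries deviated in opposite directions in expression (r = -0.44 across 10182 genes, which are not independent replicates).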

Additional observations from a re-analysis of the deposited data

How the results depend on the processing

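The 8 called genes kept their direction in all 76 combinations with an alternative, the crossed pairing aside, and kept their call in 70. IFITM2 and IFITM3 kept it in each, and IFITM1 and IRF9 in each but the filter at 5 RPKM, under which they were not tested. Without a filter on low values (17041 genes tested), 5 listed genes rose and 0 fell, since ISG15, STAT2, IFI6 and OAS1 did not pass (adjusted p = 0.0546, 0.0704, 0.0514 and 0.0658) and IFI27 did. Of all genes, 1224 rose and 322 fell under that setting. With a filter at 5 RPKM 7 listed genes were left to test, of which 4 rose and 0 fell, while 3 pathway list genes instead of 7 and 1423 of all genes instead of 2271 were called. ISG20 also fell under quantile normalization, which gave 2 lower genes. A pseudocount of 0.1 gave log2 changes of 1.76 for IFITM1 and 1.68 for ISG15.

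With 1 library left out, 6 to 7 listed genes rose, 0 to 2 fell, 5 to 9 pathway list genes and 1707 to 1998 of all genes were called, and the lone library was taken to vary like the other group. Genes that did not pass changed sign among these: EIF2AK2 (-0.092 to 0.18), IRF3 (-0.091 to 0.18), OAS3 (-0.10 to 0.061), SAMHD1 (-0.21 to 0.080) and TRIM21 (-0.19 to 0.041), and quantile normalization gave -0.086 for EIF2AK2 and -0.032 for USP18. The PSI differences then ranged from -22.9 to 15.1 points for OAS1, -11.2 to 18.1 for IFI6, -12.9 to 23.9 for the upstream STAT2 site and -23.9 to 12.9 for the downstream one.

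With the replicate number as a block, 1718 genes were called, 7 listed genes rose and 1 fell, and 99 splicing events passed. A crossed pairing of replicate numbers, added after seeing the data, gave 4196 genes, 8 listed genes higher and 3 lower, and 16 pathway list genes. Logit PSI, and limma without a trend (added after seeing the data), each gave 4 splicing events. The cause of these differences was not tested. The reads behind each value are not given, which limits what can be said of genes under 1 RPKM.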
